A study of Homo sapiens with 2 samples.

Results

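The genes described here encode 8 transcriptional corepressors, taken by name: MIER1, TRIM28, SIN3A, SIN3B, RCOR1, EZH2, BCOR and NCOR1. They are 8 of the 19974 protein-coding genes that RefSeq places on chromosomes 1 to 22 and X (GRCh38.p14, the assembly of hg38). The data are 1 deposited list of 1645 chromatin peaks from F36P, an established human cell line of erythroleukaemia. Its cells bore the retroviral vector MSCV-PIG, either with ERG joined to an AM tag (AM-ERG, labelled as ERG overexpression) or without an insert (Vector, labelled WT). All cells had been kept in puromycin at 1 µg/ml for 4 days, and the tag was precipitated with its antibody. ERG is an ETS-family transcription factor, so the peaks ask where tagged ERG sat near the genes of these corepressors. AM-ERG was expressed from the retroviral vector, and the antibody sees only tagged protein. The labels give 1 library of each kind, so no value has a replicate and AM-ERG could not be tested against Vector. Which library gave the list was not given in the sources used here. No RNA was measured here, so the identity of the cells was not checked against marker genes, and no value below is a level of expression.

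Corepressors are brought to genes by transcription factors and lower transcription there, mostly by removing or adding marks on histones. SIN3A and SIN3B are scaffolds that hold the histone deacetylases HDAC1 and HDAC2. RCOR1 (CoREST) joins the same deacetylases to the demethylase KDM1A, and MIER1 is a smaller scaffold that recruits them through a domain of the kind found in RCOR1. NCOR1 binds nuclear receptors and carries HDAC3. EZH2 is the methyltransferase of Polycomb complex PRC2, BCOR is a scaffold of a PRC1 variant, and TRIM28 (KAP1) is recruited by KRAB zinc finger proteins.

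A peak was counted for a gene when its summit lay in the gene or within 10 kb of it. By that measure 6 of the 8 members had at least 1 peak, against 9.58% of all protein-coding genes. The members were named with the peaks of this list in view, so nothing is read from that difference. MIER1, RCOR1, EZH2 and BCOR had 1 peak each, SIN3B had 2 and TRIM28 had 3, which makes 9 different peaks. SIN3A and NCOR1 had none. The 9 summits took up very different places. The MIER1 and RCOR1 peaks lay within 1 kb of an end of the gene itself, the EZH2 and BCOR peaks lay inside the gene away from its ends, and the 5 peaks counted for SIN3B and TRIM28 lay outside those genes, nearer to other protein-coding genes.

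**Figure D1:**
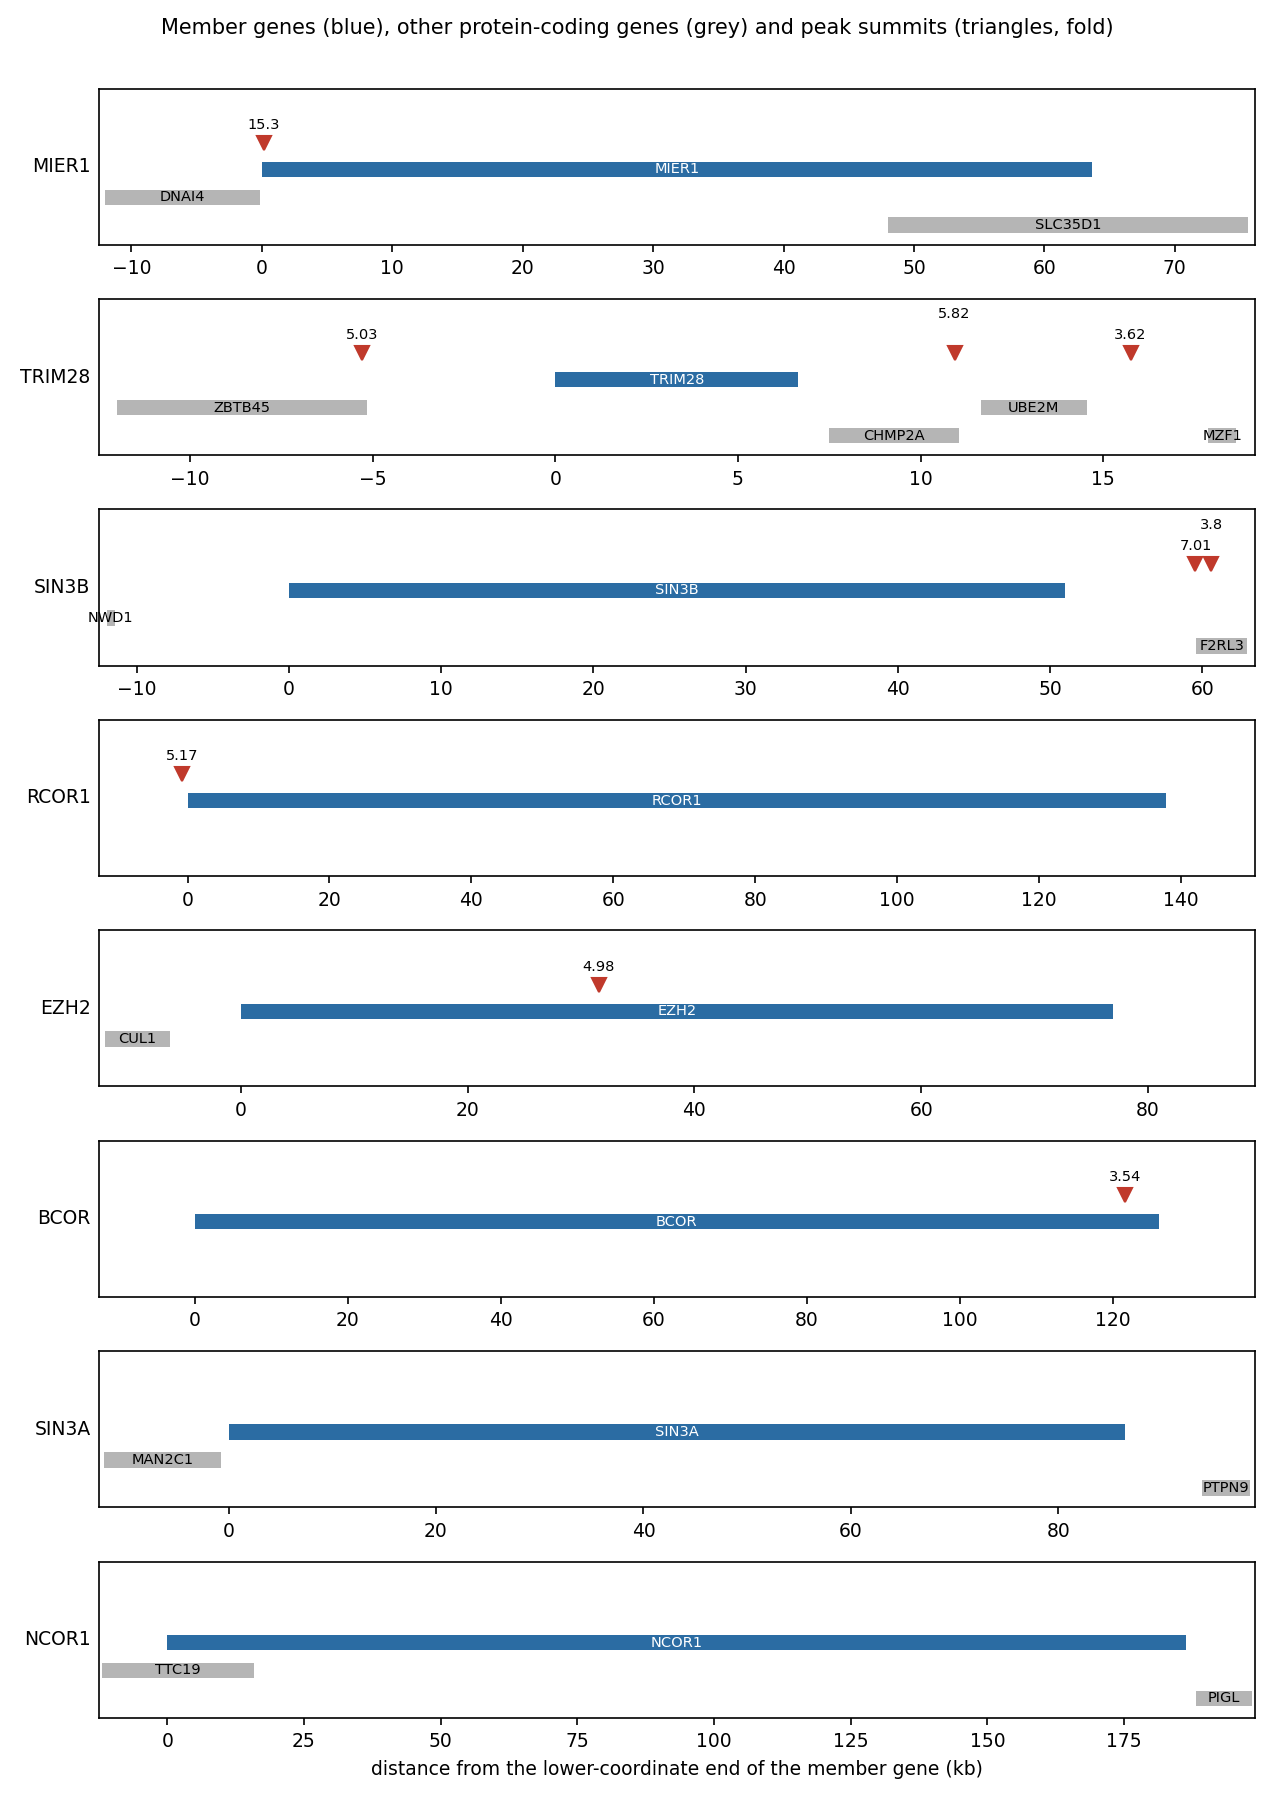
Each panel shows a member gene (blue bar) with 12 kb on either side, other protein-coding genes (grey bars) and the peak summits (red triangles, with the fold enrichment above). The horizontal axis is the distance in kb from the gene's lower-coordinate end, with its own scale in each panel. Triangles stand at the left edge of MIER1 and RCOR1, within EZH2 and BCOR, and over the neighbours of TRIM28 and SIN3B, and the panels of SIN3A and NCOR1 have none.

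Sequences are shown for annotated starts at or beside these peaks and for 2 members. They show how the letters GGAA, the core that ETS factors recognise, are placed before each start, and the printed bases may lie outside the peak. They come from RefSeq (GRCh38.p14) and run 5′ to 3′ on the gene's strand over the 250 bases that end just before its start. Capitals mark GGAA, or TTCC where the core is on the other strand. RefSeq start windows were found for 7 of the 8 members. F2RL3 lies under the strongest peak counted for SIN3B. CHMP2A and ZBTB45 lie under the 2 stronger peaks counted for TRIM28, and MZF1-AS1, a long noncoding RNA gene, borders its weakest. RCOR1 and MIER1 are the 2 members with a peak within 1 kb of an own end.
F2RL3, chr19:16888749-16888998, plus strand: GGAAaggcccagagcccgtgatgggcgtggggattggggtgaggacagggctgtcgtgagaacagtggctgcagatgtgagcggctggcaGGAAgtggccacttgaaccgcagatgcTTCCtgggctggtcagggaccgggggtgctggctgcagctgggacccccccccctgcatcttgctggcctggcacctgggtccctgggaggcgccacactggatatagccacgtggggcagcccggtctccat
CHMP2A, chr19:58555106-58555355, minus strand: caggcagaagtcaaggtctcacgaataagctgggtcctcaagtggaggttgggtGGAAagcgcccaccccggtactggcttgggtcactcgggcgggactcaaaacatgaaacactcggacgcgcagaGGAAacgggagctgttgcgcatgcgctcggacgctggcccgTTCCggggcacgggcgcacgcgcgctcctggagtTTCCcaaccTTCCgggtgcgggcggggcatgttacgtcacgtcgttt
ZBTB45, chr19:58538912-58539161, minus strand: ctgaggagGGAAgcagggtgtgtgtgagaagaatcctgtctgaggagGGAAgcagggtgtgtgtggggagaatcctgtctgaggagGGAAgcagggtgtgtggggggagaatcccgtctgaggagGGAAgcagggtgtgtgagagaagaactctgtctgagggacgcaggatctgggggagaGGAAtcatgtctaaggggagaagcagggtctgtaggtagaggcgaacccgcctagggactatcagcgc
MZF1-AS1, chr19:58558936-58559185, plus strand: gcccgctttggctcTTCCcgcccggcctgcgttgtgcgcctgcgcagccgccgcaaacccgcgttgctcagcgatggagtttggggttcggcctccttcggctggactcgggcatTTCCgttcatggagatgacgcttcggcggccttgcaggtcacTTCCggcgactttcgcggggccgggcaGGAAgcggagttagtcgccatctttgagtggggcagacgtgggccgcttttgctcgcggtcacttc
RCOR1, chr14:102592399-102592648, plus strand: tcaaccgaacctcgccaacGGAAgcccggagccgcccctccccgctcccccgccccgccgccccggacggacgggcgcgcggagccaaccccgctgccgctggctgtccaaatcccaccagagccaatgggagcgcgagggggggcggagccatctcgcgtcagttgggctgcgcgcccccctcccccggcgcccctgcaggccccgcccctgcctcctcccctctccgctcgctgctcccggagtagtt
MIER1, chr1:66930006-66930255, plus strand: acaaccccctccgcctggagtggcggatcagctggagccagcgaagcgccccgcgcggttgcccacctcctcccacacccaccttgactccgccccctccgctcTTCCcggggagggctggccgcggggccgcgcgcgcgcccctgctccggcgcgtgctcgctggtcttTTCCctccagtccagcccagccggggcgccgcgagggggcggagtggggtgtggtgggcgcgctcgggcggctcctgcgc

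Values of a peak are given in 3 forms. The fold enrichment is the authors' value over local background at the summit, and the −log10 p, also theirs, is the measure of significance. The pileup (fragments over the summit) and the local background (fragments expected there) were recovered from the deposited fold and p, and were found for 100% of the 1645 peaks. The 95% interval of a fold comes from the exact Poisson interval of its pileup, with the background held fixed. It covers the counting error of the pileup only, not that of the background, and fragments may include PCR copies. Over the 1564 peaks of the autosomes and X the median fold was 4.66, with quartiles of 3.83 and 5.77. Their median pileup was 21 fragments and their median background 3.52 fragments. The number of reads per library is unknown.

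MIER1 had the strongest peak of the members. The gene lies on chromosome 1 at 66924990 to 66988619, and its peak, of 323 bp, at 66924960 to 66925282. The fold was 15.3 (interval 11.3 to 20.2), with a pileup of 47 fragments over a background of 2.14 fragments and a −log10 p of 46.1. It was the third of the 1564 peaks by fold and number 18 by significance. Its fold interval lay above those of all 8 other peaks counted for members. The summit was 154 bp inside MIER1 at its lower-coordinate limit, which on the plus strand is the 5′ limit of the gene record. It also lay 288 bp from an end of DNAI4, a neighbouring gene for an axonemal dynein subunit, so the list does not tell which of the 2 genes the peak belongs to. The start that RefSeq's window gives for MIER1, whose upstream bases are printed above, is another one, 5112 bp downstream of the summit. The window around that start, from 66930006 on, began 4724 bp past the end of the peak. The peak is thus at the outermost annotated limit of MIER1 and not at the start in the table.

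RCOR1 was the other member with a peak at its own end. The gene lies on chromosome 14 at 102592649 to 102730561, and its peak at 102591514 to 102592392. The fold was 5.17 (3.44 to 7.48), with a pileup of 26 fragments, a background of 4.22 fragments and a −log10 p of 12.9. Its fold exceeded that of 65.0% of the 1564 peaks. The summit was 805 bp upstream of the RCOR1 start, and no other protein-coding gene lay within 10 kb of the member. At 879 bp the peak was broad against the median width of 390 bp. Its last base stood 7 bp before the first base of the RCOR1 start window, so the window held no base of the peak.

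EZH2 and BCOR carried peaks in the gene body. EZH2 lies on the minus strand of chromosome 7 at 148807383 to 148884291, and its peak, of 319 bp, at 148838904 to 148839222. The fold was 4.98 (3.29 to 7.26), with a pileup of 25 fragments, a background of 4.22 fragments and a −log10 p of 12.1. The summit was 45322 bp downstream of the gene's outer start and 31586 bp from its other end, so it was well away from both. BCOR lies on the minus strand of chromosome X at 40051246 to 40177277, and its peak, of 302 bp, at 40172646 to 40172947. The fold was 3.54 (2.08 to 5.69), with a pileup of 15 fragments, a background of 3.52 fragments and a −log10 p of 6.01. The BCOR peak was the weakest of the 9 by both measures. By significance it ranked 1429 of 1564, and only 19.0% of the peaks had a lower fold. Its summit was 4500 bp downstream of BCOR's outer start and 26144 bp upstream of the other start window. Neither the EZH2 nor the BCOR peak was counted for any other protein-coding gene. Exons and introns were not separated here.

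TRIM28 had 3 peaks in its window, and none was in the gene. That number was reached by 0.0701% of protein-coding genes (14 of 19974), but TRIM28 was named with the peaks of this list in view. Nothing is read from that share. TRIM28 is the shortest member, at 6.65 kb on chromosome 19 (58544064 to 58550715), and 3 other protein-coding genes lay within 10 kb of it. The strongest of its peaks, at 58554812 to 58555184, had a fold of 5.82 (3.88 to 8.43), a pileup of 26 fragments and a background of 3.64 fragments. Its summit was 4279 bp past TRIM28 but 111 bp inside CHMP2A, an ESCRT-III gene, just downstream of that gene's start. The 3′ end of UBE2M, which encodes a NEDD8-conjugating enzyme, was 718 bp from the same summit. The next, at 58538528 to 58538942, had a fold of 5.03 (3.47 to 7.07), a pileup of 31 fragments and a background of 5.36 fragments. It was 5296 bp from TRIM28 and 143 bp inside ZBTB45, a zinc finger gene, again just downstream of a start. The weakest, at 58559203 to 58559906, had a fold of 3.62 (2.35 to 5.35), a pileup of 23 fragments and a background of 5.63 fragments. Its summit was 9098 bp from TRIM28, 1202 bp upstream of the start of UBE2M and 627 bp inside MZF1-AS1, the RNA antisense to the zinc finger gene MZF1. Each of the 3 peaks thus had a start of another gene closer to it than TRIM28.

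SIN3B showed the same arrangement with 2 peaks. The gene lies on the plus strand of chromosome 19 at 16829398 to 16880349, and both peaks lay beyond its 3′ end. The stronger, at 16888536 to 16889433, had a fold of 7.01 (4.99 to 9.59), a pileup of 37 fragments, a background of 4.42 fragments and a −log10 p of 22.1. Its fold exceeded that of 87.6% of all peaks, the highest share among the members after MIER1. The summit was 8606 bp from SIN3B and 44 bp upstream of the start of F2RL3, which encodes the thrombin receptor PAR4 of platelets. The weaker, at 16889881 to 16890232, had a fold of 3.80 (2.36 to 5.82), a pileup of 19 fragments and a −log10 p of 7.53. It stood 9626 bp from SIN3B and 976 bp inside F2RL3. The 2 summits were 1020 bp apart, and the whole F2RL3 start window lay in the stronger peak, with the summit over its base 207.

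**Figure D2:**
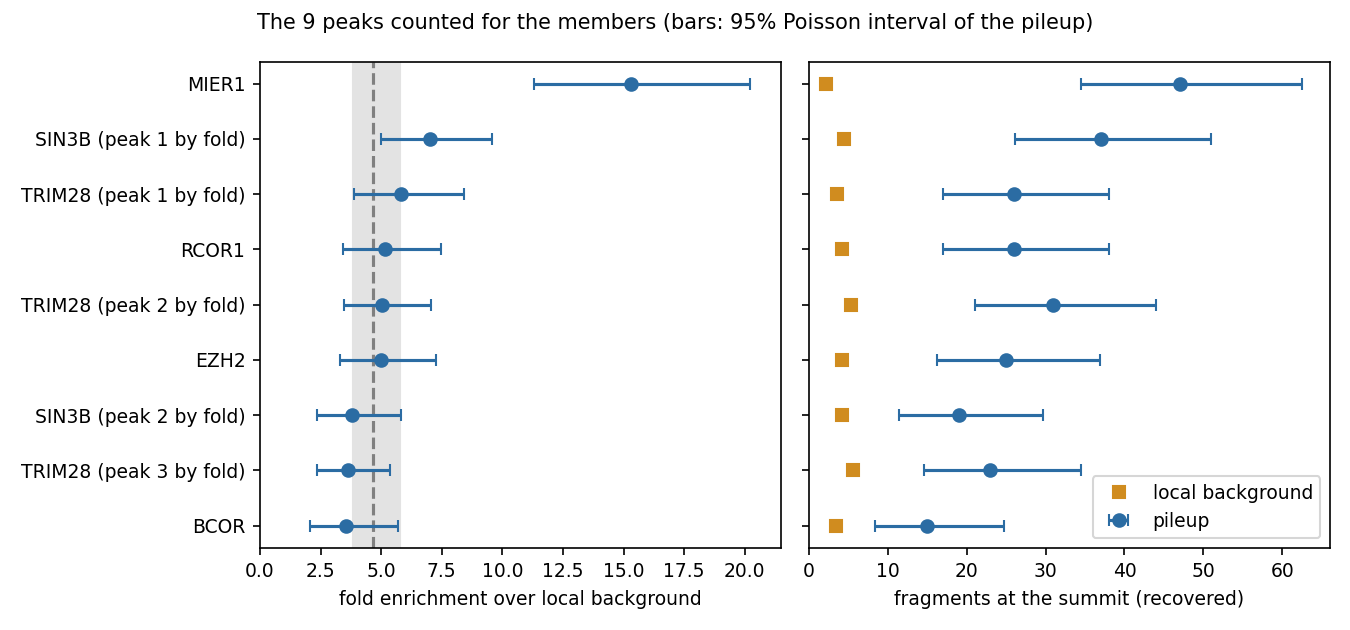
The left panel gives the authors' fold enrichment of each of the 9 peaks, with the median (dashed) and the quartiles (grey band) of the 1564 peaks of the autosomes and X. The right panel gives the recovered pileup (circles) and local background (squares) in fragments at the summit. Bars in both panels come from the 95% Poisson interval of the pileup, for its counting error only, and the background is held fixed. In the left panel the fold interval of MIER1 (11.3 to 20.2) lies above those of the other 8 peaks, which overlap each other. In the right panel the pileup interval of MIER1 (34.5 to 62.5 fragments) overlaps that of the stronger SIN3B peak (26.1 to 51.0 fragments). It also overlaps those of RCOR1 (to 38.1), EZH2 (to 36.9) and the 2 stronger TRIM28 peaks (to 38.1 and 44.0). The intervals of BCOR (to 24.7) and the weaker SIN3B peak (to 29.7) lie below it, and that of the weakest TRIM28 peak reaches 34.5.

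By fold interval, with the background held fixed, MIER1 stood apart from the other 8 peaks. By pileup interval it did not stand apart from RCOR1, EZH2, the stronger SIN3B peak and the 2 stronger TRIM28 peaks. Among the 8 peaks other than that of MIER1, 0 of the 28 pairs had separate fold intervals, though overlap does not show that 2 peaks are alike, and no pair was tested. In fragments the stronger SIN3B peak (26.1 to 51.0) and the BCOR peak (8.40 to 24.7) had separate pileup intervals. The pileups ran from 15 fragments at BCOR to 47 fragments at MIER1. The backgrounds ran from 2.14 fragments at MIER1 to 5.63 fragments at the weakest TRIM28 peak, and none exceeded 2 times the median. MIER1 joined the highest pileup of the members to the lowest background. Their median fold was 5.03, and 6 of the 9 were above the median of 4.66 of all peaks, but the members were chosen on these values and no test was made.

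**Figure D3:**
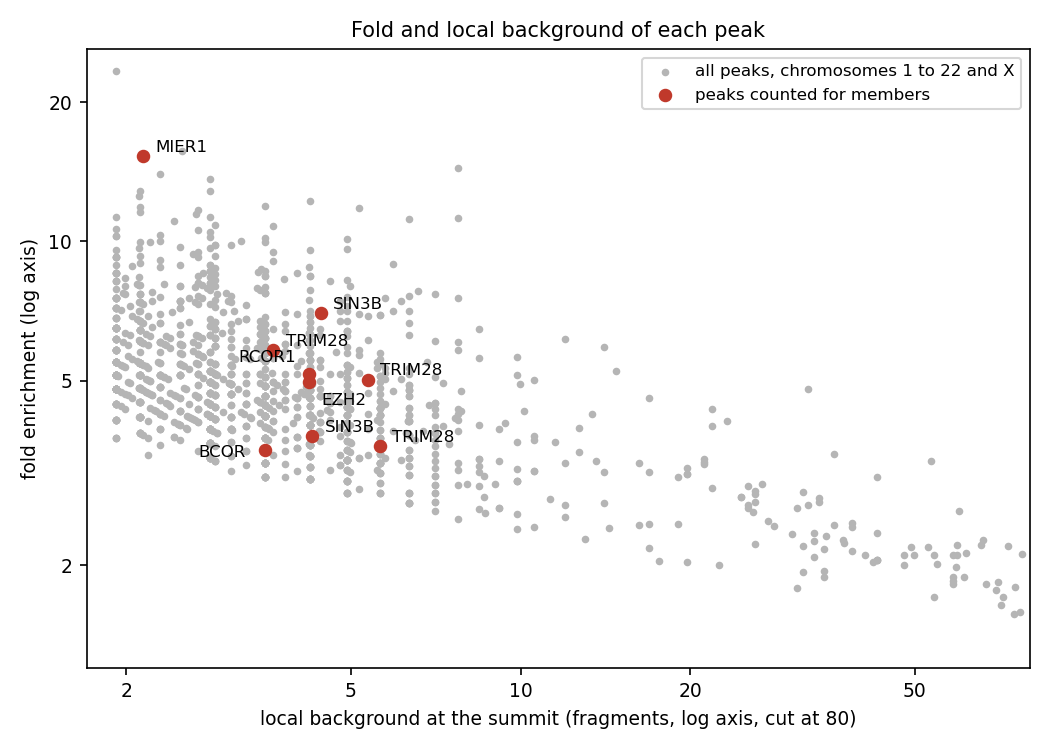
Each grey point is 1 of the 1564 peaks of the autosomes and X, with the local background at its summit in fragments (horizontal, log axis, 23 peaks beyond 80 fragments not drawn) and the authors' fold enrichment (vertical, log axis). Red points are the 9 peaks counted for members: MIER1 lies at the upper left edge of the cloud, with a background of 2.14 fragments and a fold of 15.3, and the other 8 lie within its body.

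SIN3A and NCOR1 were the members without a peak. SIN3A, of 86.4 kb on chromosome 15 (75369379 to 75455815), had its nearest summit 170 kb away. NCOR1, the longest member at 186 kb on chromosome 17 (16029157 to 16215534), had its nearest summit 2874 kb away. The last summits inside the window of a member were those at 9098 bp from TRIM28 and 9626 bp from SIN3B. The nearest summit outside it was 24.3 kb from TRIM28, with a fold of 4.67, followed by those 65.5 kb from MIER1 (3.41) and 67.0 kb from RCOR1 (5.16). The shortest member had 3 peaks, none of them in the gene, and the longest had 0. By length, a peak was found at 9.14% of all protein-coding genes under 20 kb and 10.7% of those of 20 to 100 kb. Over 100 kb the share was 8.15%. A part of gene length in these outcomes was not tested. How weak a site the list could show is unknown, so a gene without a peak is a gene without a listed peak at this depth.

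Every peak counted for SIN3B, TRIM28 and MIER1 was shared with another gene, and those of RCOR1, EZH2 and BCOR were not. Of their 9 peaks, 6 were also counted for at least 1 other protein-coding gene (66.7%), as were 44.1% of the 1287 peaks counted for any gene. When each peak was given only to the protein-coding gene nearest to its summit, SIN3B and TRIM28 lost all of theirs. F2RL3 then took both SIN3B peaks, and ZBTB45, CHMP2A and UBE2M took those of TRIM28. The members with a peak were then 4 of 8, MIER1, RCOR1, EZH2 and BCOR, against 6.18% of all protein-coding genes. With a window of 5 kb SIN3B dropped out and 5 members remained, against 8.38% of all genes.

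At the starts that RefSeq's window table gives, the members had no peak. The 11 RefSeq start windows of 7 members, each from 250 bases before to 50 bases after a start, shared 0 bases with a peak. Of the windows of protein-coding genes 4.16% did. So few windows cannot tell 0 from a share of that size, and the same goes for the motifs that none of them held. TRIM28 was not matched in the window table. The only start given for SIN3B, at 16863274, lay inside the gene record (16829398 to 16880349), so the outer 5′ limit of SIN3B was not read. All of the 11 windows held GGAA on at least 1 strand, as did 95.5% of all 34961 windows, so the core alone sets nothing apart. None held CCGGAAGT, the longer ETS consensus that contains GGAA, which was present in 4.14% of all windows. GGGCGG, the box bound by SP and KLF factors, occurred in 7 of them (45.0% of all windows), with 6 matches in that of RCOR1. The YY1 motif occurred in 1 window of NCOR1 (0.852% of all windows). CACGTG, the E-box, occurred in 1 window of BCOR (7.27%), and TGTGGT, the RUNX motif, in those of SIN3B and MIER1 and in 1 of NCOR1 (13.1%). AGATAA, the motif of GATA factors, was in none of the members' windows and in 10.3% of all. The same held for TGACGTCA, the cyclic AMP response element (1.85% of all), and for the NRF1 motif (1.24% of all). Among the windows of protein-coding genes alone the shares were 95.2% for GGAA, 5.35% for CCGGAAGT, 56.3% for GGGCGG and 11.3% for TGTGGT. For AGATAA the share was 7.88%, for CACGTG 8.34%, for TGACGTCA 2.26%, for the YY1 motif 1.18% and for the NRF1 motif 1.5%. Each motif was searched on both strands. The MIER1 window was the richest of the 11 in G and C, at 77.7%, against a median of 58.7% over all windows. The sequence under the MIER1 peak itself was not read, since no genome was used here.

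At the peaks counted for SIN3B and TRIM28 the start windows of other genes could be read, but only that of F2RL3 lay wholly in a peak. The F2RL3 window held GGAA 3 times, at bases 1, 91 and 118 (the last on the other strand), and CACGTG at bases 227 to 232, 20 bases past the summit. The CHMP2A window held GGAA 6 times, 5 of them in the bases printed, and the NRF1 motif at bases 145 to 154. Its bases 172 to 300 lay in the peak, so the NRF1 motif stood outside it. In the ZBTB45 window GGAA recurred at bases 9, 48, 87 and 126, each 39 bases after the one before. The 5 bases before and 8 after GGAA were identical at all 4 of these places. This run and the further GGAA at base 183 stood outside the peak, which covered bases 220 to 300. The MZF1-AS1 window was the one among these 4 that held CCGGAAGT, at bases 156 to 163 on the other strand, where it reads as the capitals TTCC within its reverse complement. Only bases 268 to 300 of that window lay in the weakest TRIM28 peak, so its CCGGAAGT and all its printed bases stood outside the peak. These matches describe letters and do not show where ERG was bound.

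The wider set of corepressor genes was then described by complex, with a list of 91 genes that includes the members. Apart from the members, 12 of 83 genes had a peak (14.5%, against 9.58% of all protein-coding genes). Their strongest peaks had a median fold of 4.81, where the 1913 protein-coding genes with a peak had 4.91. Among the peaks in the upper 50% by significance only 4 of the 83 genes had one (4.82%, against 5% of all genes), which is near the background. In the upper 50% by fold 7 of the 83 had one (8.43%, against 5.49%). The list was drawn up with earlier results of these data known, and no test was made.

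**Figure D4:**
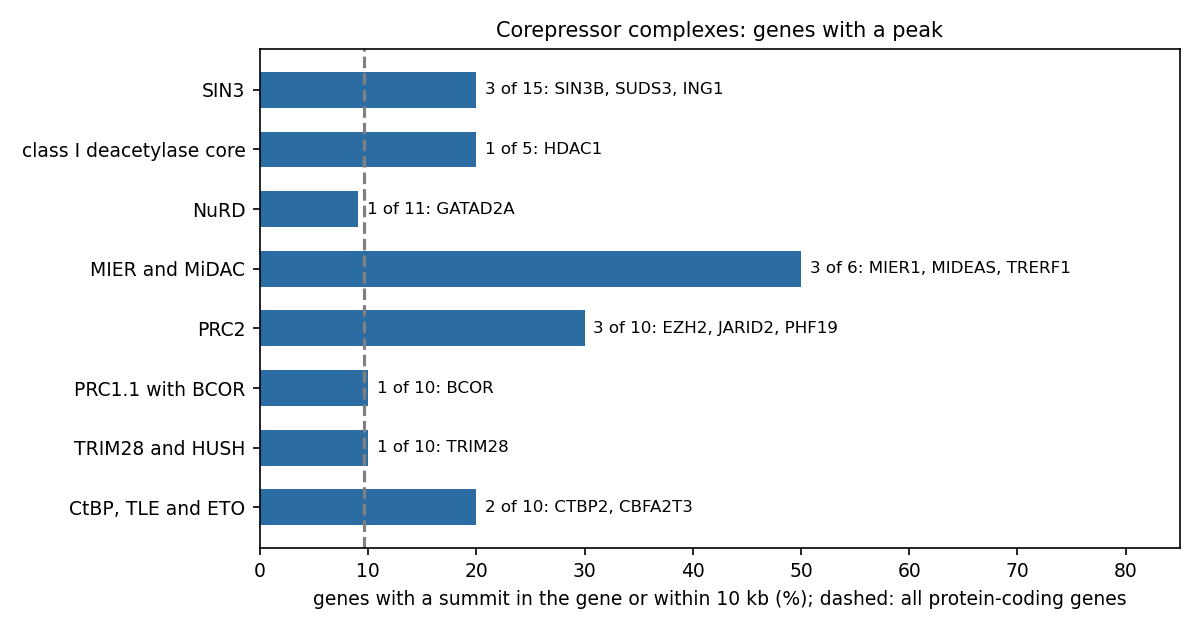
Bars give, for 8 groups of corepressor genes, the percentage of genes with a summit inside or at most 10 kb away, with the counts and the genes beside them, members included. The dashed line marks 9.58%, the share of all protein-coding genes. The MIER and MiDAC genes reach 50% with 3 of 6 and NuRD 9.09% with 1 of 11, and each bar shown rests on 1 to 3 genes.

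Of the partners of SIN3 and of the deacetylases, HDAC1, SUDS3 and ING1 had peaks close to their ends. HDAC1, the deacetylase that SIN3, RCOR1 and MIER1 complexes share, had a fold of 4.05 (2.63 to 5.99) at a summit 168 bp inside the gene. SUDS3, a SIN3 subunit, had 2.86 (1.76 to 4.44) at 2 bp from its end. ING1, a reader of methylated histone H3 in the SIN3 complex, had 3.77 (1.98 to 6.64) at 115 bp, with a pileup of 10 fragments. Both peaks were among the weaker ones: by significance SUDS3 ranked 1517 and ING1 1512 of the 1564 peaks. The ING1 summit lay inside the neighbouring gene CARS2. With SIN3B these were 3 of 15 SIN3 genes (20.0%) and 1 of 5 genes of the deacetylase core (20.0%). Among all protein-coding genes 9.58% had a peak, and the difference was not tested. HDAC2, HDAC3, RBBP4 and RBBP7 had no peak.

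Other genes of the MIER and MiDAC group also had peaks, though not the paralogues of MIER1. TRERF1 and MIDEAS, which like MIER1 carry the domain pair that binds HDAC1 and HDAC2, had folds of 6.26 (262 bp from an end of TRERF1) and 5.10 (inside MIDEAS, 26540 bp from its nearest end). The TRERF1 summit also lay at an end of LOC124900214. The paralogues MIER2 and MIER3 had none. KDM1A, the demethylase that works with RCOR1, had none either. In NuRD, GATAD2A had 2 peaks (4.29 and 3.45), the weaker at ends of TSSK6 and NDUFA13, and the other 10 genes had none. The stronger GATAD2A summit lay inside the gene, within 1 kb downstream of an inner RefSeq start.

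In PRC2 the accessory subunits JARID2 (4.82, 348 bp from its end) and PHF19 (5.17, inside the gene) also had peaks. The PHF19 summit was away from both ends of the gene but within 1 kb downstream of an inner RefSeq start. The EZH2 summit was not within 1 kb of any RefSeq start listed for EZH2. EZH1, EED and SUZ12 had no peak. BCOR was the only 1 of 10 PRC1.1 genes with a peak and TRIM28 the only 1 of 10 in its group. Both shares, 10.0%, were near the 9.58% of all protein-coding genes. In the TRIM28 group there was none at SETDB1 or at the heterochromatin protein genes CBX1, CBX3 and CBX5. CBFA2T3 (ETO2), a corepressor of erythroid and megakaryocytic factors, had 8.07 (5.49 to 11.5) at 58 bp inside its end, the highest fold of the list after MIER1. It had a further peak of 6.33. The 2 summits lay 35799 and 37770 bp upstream of the start that RefSeq's window gives for CBFA2T3. CTBP2 had 5.58 in the gene body, and none of the TLE genes had a peak.

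The places of the peaks were compared last, as counts with no test. A summit within 1 kb of an own end was found at 2 of the 8 members, at 7 of the 83 other list genes (8.43%) and at 5.86% of all protein-coding genes. Among genes with a peak, that was 2 of 6 members (33.3%), 7 of 12 other list genes (58.3%) and 61.2% of all. The counts are small and rest on 1 list.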

How the data were processed

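AM-tag ChIP-seq of F36P cells gave 1 library with AM-ERG and 1 with Vector. Per the labels' protocols, each used 10000000 cells fixed in 1% formaldehyde, 20 minutes of micrococcal nuclease and 10 µg of chromatin. Bowtie2, MACS2, deepTools and hg38 are named, per the submitters' processing notes. Versions and settings were not given in the sources used here. Deposited with each peak are the authors' score (not used further), fold enrichment (a ratio to local background), and p-value and q-value, both as −log10. In the authors' deposited table the largest q was 0.0474.

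The summit is the deposited start plus the offset, written 1-based. Pileup and background were solved from fold = (pileup + 1)/(background + 1) and a Poisson upper tail for p (tolerance 0.001 in log10 p). This returned 300 of 300 peaks simulated with the same formulas, which checks the solving step only. Genes and start windows came from RefSeq (GRCh38.p14), matching all 91 list genes. Peaks off chromosomes 1 to 22 and X were left out. The members and lists were chosen with earlier results of these data known. By rule, the members, list genes with a peak and genes at members' peaks were named, and other genes were named after their values were seen. Some list genes with a peak are not reported here by name, and the plot by complex leaves out their groups. With 1 library a group, no test was made. Alternatives changed the window, peak threshold, raised background, overlap and assignment. Tools were Python 3.11.15, numpy 2.4.6, pandas 2.3.3, matplotlib 3.10.9 and SciPy 1.17.1.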

Additional observations from a re-analysis of the deposited data

How the results depend on the processing

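No paired analysis was possible because neither group has a repeat and no number in the labels links the 2 libraries. Of the 28 values recomputed under alternatives, 24 stayed within 1.5 times the reported count. The 9 peaks counted for members became 5 with a window of 5 kb, which follows from the smaller window, and 4 when each peak went only to the nearest protein-coding gene. Members with a summit near an own end fell from 2 to 1, MIER1, when 500 bp replaced 1 kb, since the RCOR1 summit is at 805 bp. Corepressor list genes with a peak, members included, fell from 18 to 9 in the upper 50% of peaks by significance, as fewer peaks were counted. Members with a peak were 4 to 6 over the alternatives. Depth limits single peaks: the 15 fragments at BCOR have a counting interval of 8.40 to 24.7 fragments.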

Other observations

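Over the whole list, 448 RefSeq start windows held a summit. CCGGAAGT was found in 30.8% of these windows and in 4.14% of all 34961 windows. None of the members' 11 windows had it, but none of those shared a base with a peak, so the 30.8% is not their comparison. The windows with a summit also had a higher median content of G and C, 68.7% against 58.7%, and held GGGCGG more often, 76.3% against 45.0%, and AGATAA less often, 3.57% against 10.3%. The part of base composition in these shares was not tested.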
